A study of Homo sapiens with 6 samples.

Results

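The IRE1-XBP1 branch of the unfolded protein response and ER-associated degradation (ERAD) were followed through 5 genes, ERN1, XBP1, SEL1L, HERPUD1 and EDEM1. Together they held 6 of the 838 genomic regions whose H3K27ac, the acetylation of histone H3 that marks active promoters and enhancers, the authors listed as changed in several myeloma cell lines. A region counted for one of the genes when it overlapped that gene or, where it overlapped no protein coding or lncRNA gene, when the gene had the nearest boundary. All 6 regions overlapped their gene, and none overlapped a further annotated gene of any type. The 5 genes were themselves chosen by these fold changes, and the 838 regions were selected on them, so every fold change below is a description and no test was made on it.

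H3K27ac ChIP-seq covered 3 JQ1 samples and 3 DMSO samples. JQ1 is a small molecule that keeps BET bromodomain proteins off acetylated histones, and it was given at 1 µM for 72 h. The DMSO samples received the same volume of solvent. Each treatment had 1 sample of KMS-11, 1 of KMS-12 and 1 of RPMI8226, which are established human multiple myeloma lines, that is, lines of malignant plasma cells, all labelled WT, and the labels do not say from which subline of KMS-12 the cells came. The series' design text spells the first line KMS-111, where the sample labels have KMS-11. The deposited values are 1 log fold change per line and region, read here as log2 of JQ1 over DMSO. The table names no log base and no direction of the ratio, and every "lower after JQ1" depends on that reading. There is no replicate within a line, no value of a single sample and no count, so depth is unknown and the values carry no error. The table holds no H3K27ac level, so the plasma cell identity of the lines was not checked against marker genes.

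IRE1, the product of ERN1, is a sensor in the membrane of the endoplasmic reticulum (ER). When unfolded protein accumulates it cuts the XBP1 mRNA, and the respliced mRNA encodes the active transcription factor XBP1s, which raises genes of protein folding, secretion and ERAD. ERAD returns misfolded glycoproteins to the cytosol for destruction by the proteasome: EDEM1 helps to trim their mannose and pick them out, SEL1L holds the HRD1 ubiquitin ligase complex together, and HERPUD1 is a membrane protein that organises this complex. Plasma cells secrete antibody in bulk and need XBP1 for it.

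The promoters are shown first because 3 of the 6 regions covered them. Each window runs from 250 bases before to 50 after the RefSeq start of the gene (GRCh38.p14, which shares its chromosome coordinates with hg38) and is printed in the direction of transcription. Capitals mark every match, on either strand, to a searched motif. The ER stress response element (ERSE) was searched as CCAAT followed after 9 bases by CCACG, ERSE-II as ATTGG followed after 1 base by CCACG, the core of the unfolded protein response element as TGACGTGG, and the C/EBP-ATF element as TGATG followed after 1 base by AA. The hexamers GACGTG and CCACGT, the E-box CACGTG, the ETS core CCGGAAGT and the CCAAT box, which NF-Y binds, were searched as well. Matches may overlap, since ERSE and ERSE-II contain a CCAAT box.
XBP1 (chr22:28800520-28800819, minus strand): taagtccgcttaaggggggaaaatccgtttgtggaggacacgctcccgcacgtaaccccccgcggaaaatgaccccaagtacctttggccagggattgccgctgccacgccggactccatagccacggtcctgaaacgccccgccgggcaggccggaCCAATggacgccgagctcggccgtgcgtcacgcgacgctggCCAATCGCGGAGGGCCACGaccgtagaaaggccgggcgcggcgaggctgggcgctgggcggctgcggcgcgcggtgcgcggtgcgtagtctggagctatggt
HERPUD1 (chr16:56931892-56932191, plus strand): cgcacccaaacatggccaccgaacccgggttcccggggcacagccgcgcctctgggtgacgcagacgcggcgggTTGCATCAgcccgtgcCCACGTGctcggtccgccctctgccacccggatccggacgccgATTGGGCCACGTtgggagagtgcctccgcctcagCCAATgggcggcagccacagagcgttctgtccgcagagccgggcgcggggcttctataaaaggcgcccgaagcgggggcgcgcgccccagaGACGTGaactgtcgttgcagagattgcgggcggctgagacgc
EDEM1 (chr3:5187457-5187756, plus strand): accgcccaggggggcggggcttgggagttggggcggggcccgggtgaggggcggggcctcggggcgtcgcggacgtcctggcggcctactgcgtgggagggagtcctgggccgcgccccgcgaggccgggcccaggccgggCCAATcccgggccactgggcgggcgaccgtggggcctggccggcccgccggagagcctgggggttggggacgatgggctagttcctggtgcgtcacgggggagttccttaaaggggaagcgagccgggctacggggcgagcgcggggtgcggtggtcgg
ERN1 (chr17:64130095-64130394, minus strand): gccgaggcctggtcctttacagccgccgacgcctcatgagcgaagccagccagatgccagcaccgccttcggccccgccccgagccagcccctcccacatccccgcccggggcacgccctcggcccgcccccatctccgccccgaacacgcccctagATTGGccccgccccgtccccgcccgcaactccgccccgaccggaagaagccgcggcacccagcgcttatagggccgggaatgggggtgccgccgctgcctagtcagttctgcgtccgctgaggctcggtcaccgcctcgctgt
SEL1L (chr14:81533804-81534103, minus strand): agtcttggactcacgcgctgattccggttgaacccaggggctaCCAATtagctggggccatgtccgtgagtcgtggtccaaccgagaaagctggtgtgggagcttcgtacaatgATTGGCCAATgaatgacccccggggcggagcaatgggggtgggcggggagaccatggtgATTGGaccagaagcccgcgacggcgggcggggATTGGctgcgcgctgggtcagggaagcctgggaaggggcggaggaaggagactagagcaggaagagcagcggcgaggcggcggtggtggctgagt

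The windows of XBP1 and HERPUD1 each held an ER stress element, and those of EDEM1, ERN1 and SEL1L held none of either form. In XBP1 the ERSE spanned positions -52 to -34 from the start, an element of the kind through which ATF6, the sensor of another branch, is known to raise XBP1. In HERPUD1 an ERSE-II lay at -117 to -107, with a C/EBP-ATF element at -176 to -169 and an E-box at -159 to -154. ERSE was present in 27 of 35116 RefSeq windows (0.0769%) and ERSE-II in 19 (0.0541%). These elements were first defined on promoters of this kind, so their presence is no independent result. A CCAAT box occurred in the windows of all 5 genes, against 34.6% of all windows. SEL1L had 5 CCAAT boxes, as many or more than which were found in 0.359% of windows, a count looked up after the matches were seen. No window of the 5 genes held the TGACGTGG core (0.729% of all windows) or the ETS core (4.14%), which says only that these letters are absent from these 300 bases. The C/EBP-ATF element was found in 3.62% of all windows, the E-box in 7.26%, GACGTG in 7.81% and CCACGT in 9.72%, and HERPUD1 was the member that held each of these.

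**Figure D1:**
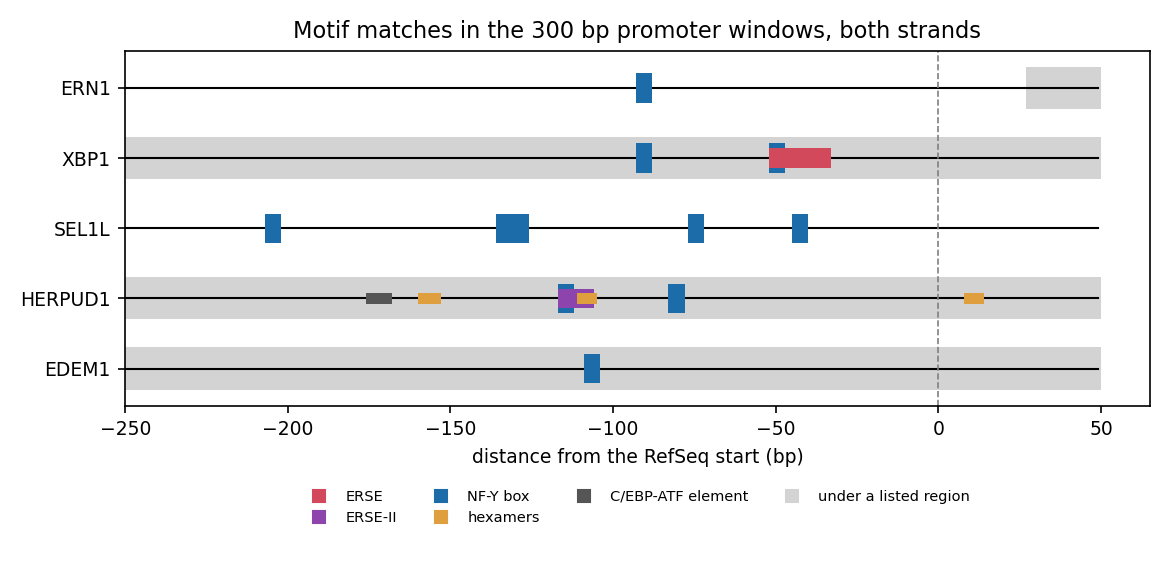
Motif matches in the 300-base promoter windows of the 5 genes, by distance from the RefSeq start in bases, with the part of each window under a listed H3K27ac region in grey; "NF-Y box" is the CCAAT box, and "hexamers" groups the E-box with the other 6-base motifs. The windows of XBP1, HERPUD1 and EDEM1 lie wholly under a region, 23 bases of the ERN1 window do, and none of the SEL1L window does.

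The 6 regions took different places on their genes. Those at XBP1, HERPUD1 and EDEM1 covered the transcription start and all 300 bases of the window, whereas the ERN1 region and both SEL1L regions lay wholly inside the gene, downstream of the start. The XBP1 region ran from 627 bp before to 1937 bp after the start, the HERPUD1 region from 1539 bp before to 1062 bp after it, and the EDEM1 region from 618 bp before to 1163 bp after it. The ERN1 region began 27 bp and ended 1206 bp downstream of the start of a gene of 91003 bp. The SEL1L regions lay at 95 to 758 bp and at 3420 to 4080 bp downstream of the start, with 2661 bp between them. Among the 822 listed regions on chromosomes whose starts were used here, 400 (48.7%) covered a start. Another 180 (21.9%) covered none but lay wholly downstream of one, with their near edge within 5 kb of it.

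The regions that covered a start were also the wide ones. HERPUD1 had 2602 bp, XBP1 2565 bp and EDEM1 1782 bp, which placed them 16th, 19th and 132nd by width among 838 regions with a median of 1165 bp. ERN1 had 1180 bp, close to the median, and the SEL1L regions had 664 bp (near the start) and 661 bp (further in). The RefSeq table used gives no exons, so exon and intron could not be told apart inside ERN1 and SEL1L. XBP1 has a second RefSeq start 492 bp downstream of the one used, which the same region covers.

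**Figure D2:**
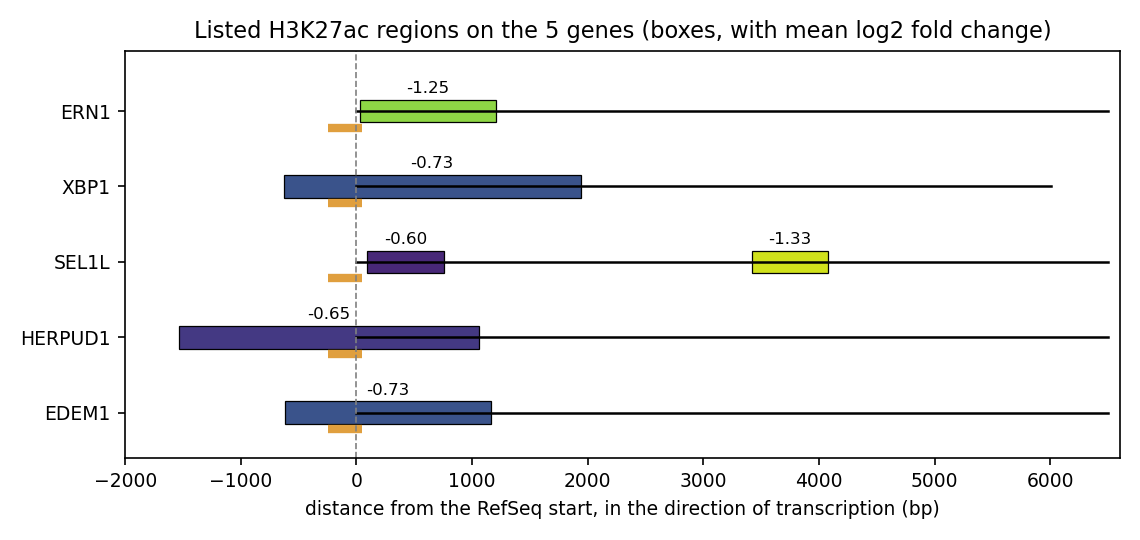
Listed H3K27ac regions (boxes) on the 5 genes by distance in bp from the RefSeq start, in the direction of transcription; the black line is the gene body, drawn only in part for the longer genes, the orange bar is the 300-base window, and the number over a box, which also sets its colour, is the mean log2 fold change of JQ1 over DMSO over the 3 lines. The lowest means, -1.33 at the inner SEL1L region and -1.25 at ERN1, belong to boxes that do not reach the start.

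Each line was past -0.5 on the log2 scale at all 6 regions, a property of 25.4% of the 838 regions; the list was filtered at -0.5 in at least 2 lines, so nothing is read from this count. In the authors' deposited table the closest value to the threshold was -0.50 at EDEM1 in KMS-11, just inside it, followed by -0.52 at the outer SEL1L region in RPMI8226. Values of the authors' deposited table below -1 were found at 2 of the 6 regions in KMS-11 (XBP1 and the inner SEL1L region), where 13.5% of all regions had one, and at 2 in KMS-12 (ERN1 and the inner SEL1L region), where 21.2% did. In RPMI8226 ERN1 alone was below -1 among the 6, in a line where 4.42% of regions were. Median fold changes over the 6 regions were -0.90 (KMS-11), -0.83 (KMS-12) and -0.63 (RPMI8226) from the authors' deposited table, beside -0.66, -0.69 and -0.56 over all 838 regions in the same order of lines.

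ERN1, the sensor gene, had one of the lowest values of the list in RPMI8226 (chr17:64128938-64130117). The authors' deposited table gave it -0.99 (KMS-11), -1.37 (KMS-12) and -1.37 (RPMI8226), or, read as log2, 49.8%, 61.4% and 61.4% less H3K27ac after JQ1 than with DMSO. It was the 4th lowest of 838 regions in RPMI8226, the 76th in KMS-12 and the 116th in KMS-11. By the mean of the lines ERN1 was 17th lowest of 838. RPMI8226 was the line with the lowest value at ERN1, as at 21.6% of all regions, but it led KMS-12 there by less than the printed digits show.

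XBP1, the transcription factor that IRE1 activates, was lowest in KMS-11 (chr22:28798632-28801196). The authors' deposited table listed it at -1.08 (KMS-11), -0.57 (KMS-12) and -0.55 (RPMI8226), or 52.7%, 32.4% and 31.5% less signal. In KMS-11 it was 78th lowest, within the lowest 9.31% of regions, while in KMS-12 and RPMI8226 it ranked 563rd and 450th, less low than the median region. The KMS-11 value decided its place in the list, 237th by the mean of the lines and 631st by their median.

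SEL1L, the scaffold of the HRD1 complex, carried 2 regions that differed from each other. At the inner one (chr14:81529773-81530433) the authors' deposited table listed -1.30 (KMS-11), -1.85 (KMS-12) and -0.85 (RPMI8226), or 59.4%, 72.3% and 44.4% less signal. At the outer one, beside the start (chr14:81533095-81533758), it was -0.61, -0.67 and -0.52 in the authors' deposited table, or 34.3%, 37.3% and 30.3% less. The inner region was the lower of the pair in each line, by -0.70 (KMS-11), -1.18 (KMS-12) and -0.33 (RPMI8226) on the log2 scale of the authors' deposited table. It was 13th lowest of 838 by mean and the outer region 491st. Of the 1029 genes assigned to regions, 31 had more than 1 region, with a median difference of 0.22 between the means of a gene's highest and lowest region, and the SEL1L difference of 0.73 was 6th among them. In 2 of these 31 genes, SEL1L included, every region was past -0.5 in all 3 lines.

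HERPUD1, the membrane organiser, had values that lay close together (chr16:56930603-56933204). The authors' deposited table gave -0.81 (KMS-11), -0.57 (KMS-12) and -0.57 (RPMI8226), or 42.9%, 32.8% and 32.6% less H3K27ac. The distance of 0.24 between its highest and lowest line was narrower than the 0.52 that was the median of all regions. That distance was also under the median at the outer SEL1L region (0.15), ERN1 (0.38) and EDEM1 (0.49), and above it at XBP1 (0.53) and the inner SEL1L region (1.01). Like XBP1, HERPUD1 was lowest in KMS-11 and had nearly equal values in the other lines.

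EDEM1, the mannose-trimming factor, was least low in KMS-11, the line in which XBP1 and HERPUD1 were lowest (chr3:5187089-5188870). In the authors' deposited table it had -0.50 (KMS-11), -0.99 (KMS-12) and -0.69 (RPMI8226), or 29.5%, 49.7% and 38.2% less signal. It was 187th lowest in KMS-12, 238th in RPMI8226 and 695th in KMS-11. KMS-12 was the lowest line at EDEM1 and at both SEL1L regions, KMS-11 at XBP1 and HERPUD1, and RPMI8226 at ERN1, so that the 6 regions shared no order of lines. Over the whole list KMS-12 was lowest at 44.6% of regions and KMS-11 at 33.8%. With 1 JQ1 and 1 DMSO sample per line, differences between lines were not tested.

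**Figure D3:**
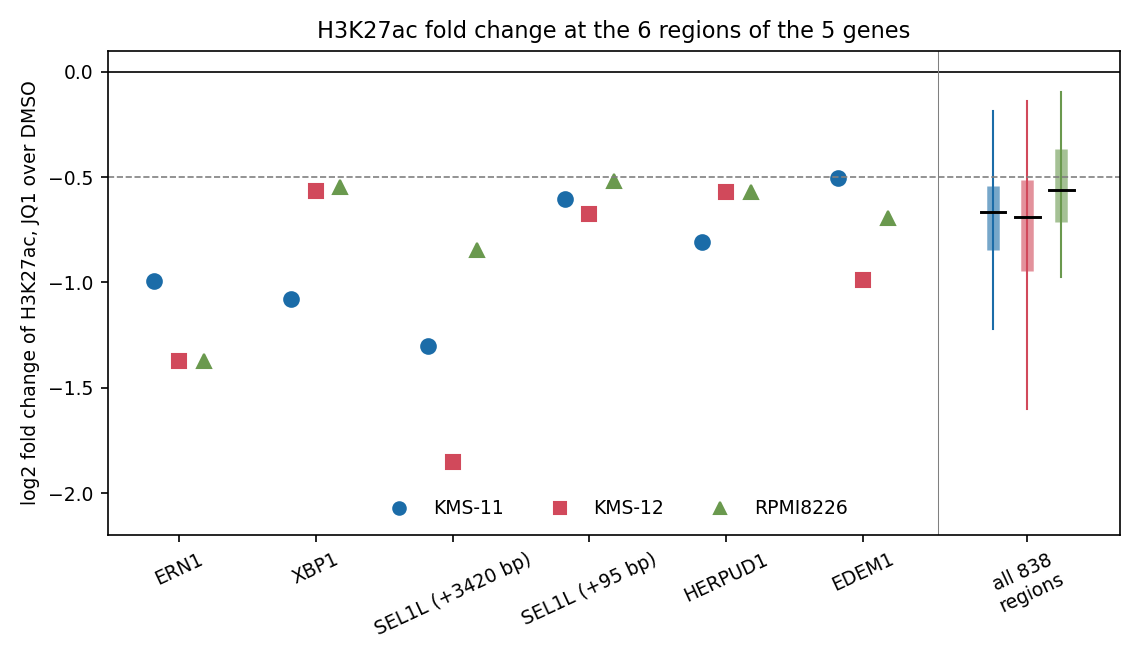
Log2 fold change of H3K27ac, JQ1 over DMSO, at the 6 regions in each line (points), with the spread of all 838 listed regions at the right (thin line 5th to 95th percentile, thick bar quartiles, black mark median); the dashed line is the -0.5 filter. ERN1 at -1.37 in RPMI8226 and the inner SEL1L region at -1.85 in KMS-12 lie below the 5th percentile of their line, as does the inner SEL1L region at -1.30 in KMS-11, and the XBP1 and HERPUD1 points of KMS-12 and RPMI8226 sit just past the filter.

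At a stricter limit the regions separated. Past -0.75 in all 3 lines there were 33 of 838 regions (3.94%), and ERN1 and the inner SEL1L region were 2 of them. Past -1 in all 3 lines there were 5 regions (0.597%), none of them at the 5 genes. The next listed region outside the 5 genes lay 132071 bp from ERN1, at TEX2, 189883 bp from HERPUD1, at CPNE2, 208672 bp from EDEM1, at BHLHE40-AS1, 2365422 bp from XBP1, at ASPHD2, and 4442540 bp from SEL1L, at IRF2BPL. Of these neighbours, TEX2 had -0.62, -0.07 and -0.55 in KMS-11, KMS-12 and RPMI8226 in the authors' deposited table, so that the listed region nearest to ERN1 was hardly lower in KMS-12. BHLHE40-AS1 had -1.22, -1.60 and -0.57 in the same order, lower than EDEM1 in KMS-11 and KMS-12. CPNE2 had -0.37, -0.58 and -0.96, ASPHD2 -0.525, -0.64 and -0.29, and IRF2BPL -0.52, -0.85 and -0.08 in the authors' deposited table.

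**Figure D4:**
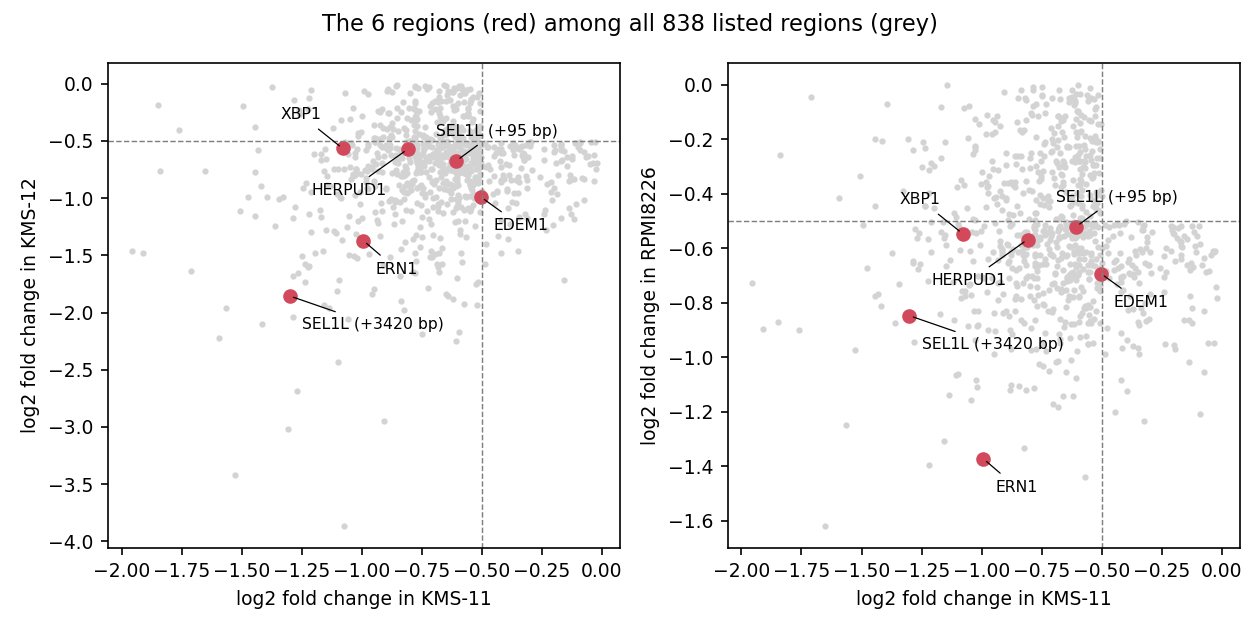
Log2 fold changes of all 838 listed regions (grey) and of the 6 regions at the 5 genes (red), KMS-11 on the x axis against KMS-12 (left panel) and RPMI8226 (right panel) on the y axis, with dashed lines at -0.5. The empty corner at the upper right of each panel is the filter. ERN1 lies away from most regions in the right panel but has others around it in the left panel. The inner SEL1L region lies away from most regions in both panels, and the other 4 lie closer to the crowd.

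The listed regions with the most similar 3 values, by Euclidean distance over the lines, were at genes of varied kinds. Nearest to ERN1 was DDIT4, which encodes the stress-induced mTORC1 inhibitor REDD1, at a distance of 0.29 with -1.02, -1.32 and -1.09 in KMS-11, KMS-12 and RPMI8226 in the authors' deposited table. Nearest to XBP1 were LOC105375578 (0.05) and STK17B (0.06). The third nearest to XBP1, at 0.08, was SEC61A1, the pore subunit of the ER translocon, which had -1.15, -0.57 and -0.55 in the authors' deposited table. Nearest to the inner SEL1L region was LONP1, a mitochondrial protease gene (0.26), and nearest to the outer one MANEAL (0.04). SLC25A33, a mitochondrial carrier gene, was nearest to HERPUD1 (0.03), and RAB11A, a recycling endosome GTPase gene, to EDEM1 (0.04). The distances rest on 3 values each.

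The remaining genes of the pathway were taken from lists of sensors, ERAD steps and targets. Of protein coding genes as a whole, 4.11% had a listed region. IRE1 signalling had 3 of 13 genes with one: besides ERN1 and XBP1 this was SEC63, a translocon partner, whose region started 63 bp downstream of its start and had -0.82 (KMS-11), -0.74 (KMS-12) and -0.62 (RPMI8226) in the authors' deposited table. HSPA5, the chaperone BiP that holds IRE1 inactive, had no listed region within 364649 bp. ERAD recognition and mannose trimming had 4 of 12. EDEM3, a relative of EDEM1, had -0.88, -0.56 and -0.90 in the authors' deposited table in the same order of lines, past -0.5 in all 3. MAN1A1, a mannosidase, had -0.78, -0.29 and -0.53 in the authors' deposited table. TXNDC11, a disulfide protein that works with EDEM factors, was given -0.57, -0.08 and -0.82 by the authors' deposited table.

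The ERAD membrane complex had 2 of 22 genes with a region, SEL1L and HERPUD1 themselves. SYVN1, which encodes the HRD1 ligase that SEL1L holds, DERL1, DERL2 and DERL3, which encode Derlin channel components, and UBE2J1, an ERAD ubiquitin-conjugating enzyme, had none, and the nearest listed regions were 390565, 1329271, 766541, 66123 and 179630 bp away, in the order named. The extraction and cytosolic steps, which include the VCP ATPase that pulls substrates out, had 0 of 16. For a gene without a listed region the table does not tell whether it missed the filter or was never tested. With 4.11% of protein coding genes listed, lists of this size cannot show an absence.

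XBP1 targets outside ERAD had 8 of 21 genes with a region, 4 of them past -0.5 in all 3 lines, as were 25.4% of the 838 regions. HYOU1, an ER chaperone, had -1.13 (KMS-11), -0.90 (KMS-12) and -0.64 (RPMI8226) in the authors' deposited table. DNAJB9, a co-chaperone of BiP, had -0.78, -0.62 and -0.62 in the authors' deposited table. CRELD2, an ER stress-induced secreted protein, had -0.73, -0.77 and -0.66 in the authors' deposited table, at a region 6067 bp beyond the gene. SEC61A1 was the remaining one. The other 4, DNAJC3, SEC61G, SEC31A and PDIA4, were past -0.5 in KMS-11 and RPMI8226 only. Among these 4, SEC61G, a translocon subunit, differed most between lines, and the authors' deposited table gave it -1.21, -0.05 and -0.50. The ATF6 branch had 2 of 12, CALR and PDIA4, and ATF6 itself had no listed region within 325349 bp. CALR, the lectin chaperone calreticulin, was listed at -0.77, -0.24 and -0.57, and PDIA4, a disulfide isomerase, at -0.92, -0.36 and -0.59 in the authors' deposited table.

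Where a region of these lists was past -0.5 in 2 lines, KMS-12 was the line that missed it. Over the IRE1, ERAD, XBP1 target and ATF6 lists there were 19 regions, the 6 of the 5 genes among them. Of these 19, 12 were past -0.5 in all 3 lines, as were 25.4% of the 838 regions. The 12 include the 6 regions of the 5 genes, and without those genes the count was 6 of 13. The other 7 were all past it in KMS-11 and RPMI8226 but not in KMS-12, a pattern of 22.3% of the 838 regions. The KMS-12 values of these 7 in the authors' deposited table were between -0.36 and -0.05. Over the whole list, 625 regions were past -0.5 in 2 lines, and 187 of them missed it in KMS-12, 139 in KMS-11 and 299 in RPMI8226. Medians over all 19 regions were -0.81 (KMS-11), -0.57 (KMS-12) and -0.62 (RPMI8226) from the authors' deposited table. Over all 838 regions they were -0.66, -0.69 and -0.56 in the same order. Without the 5 genes, which were chosen by these fold changes, the 13 other regions had medians of -0.78 (KMS-11), -0.36 (KMS-12) and -0.62 (RPMI8226) from the authors' deposited table. The 6 regions of the PERK branch, the third arm of the response, had medians of -0.69, -1.40 and -0.64 in the same order in the authors' deposited table. Of these 6, 3 were past -0.5 in all 3 lines, 1 missed it in KMS-11, 2 in RPMI8226 and 0 in KMS-12. The PERK branch had 5 of 11 genes with a region, ATF4, DDIT3, PPP1R15B, TRIB3 and CHAC1, and EIF2AK3, which encodes PERK, had none. DDIT3, the stress factor CHOP, was listed at -0.78 (KMS-11), -1.48 (KMS-12) and -0.63 (RPMI8226), and TRIB3, a pseudokinase gene that CHOP raises, at -1.53, -3.42 and -0.97 in the authors' deposited table. TRIB3 held 2 of the 6 regions, and its second, 4592 bp outside the gene, was listed at -0.59, -2.17 and -0.28 in the authors' deposited table. CHAC1 had -0.59, -1.32 and -0.04 in the same order. KMS-12 was not the lowest line at ATF4, with -0.82, -0.58 and -0.65, or at PPP1R15B, with -0.03, -0.85 and -0.95 in the authors' deposited table. These are counts in lists put together with the earlier results known, and the difference between the lists was not tested.

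**Figure D5:**
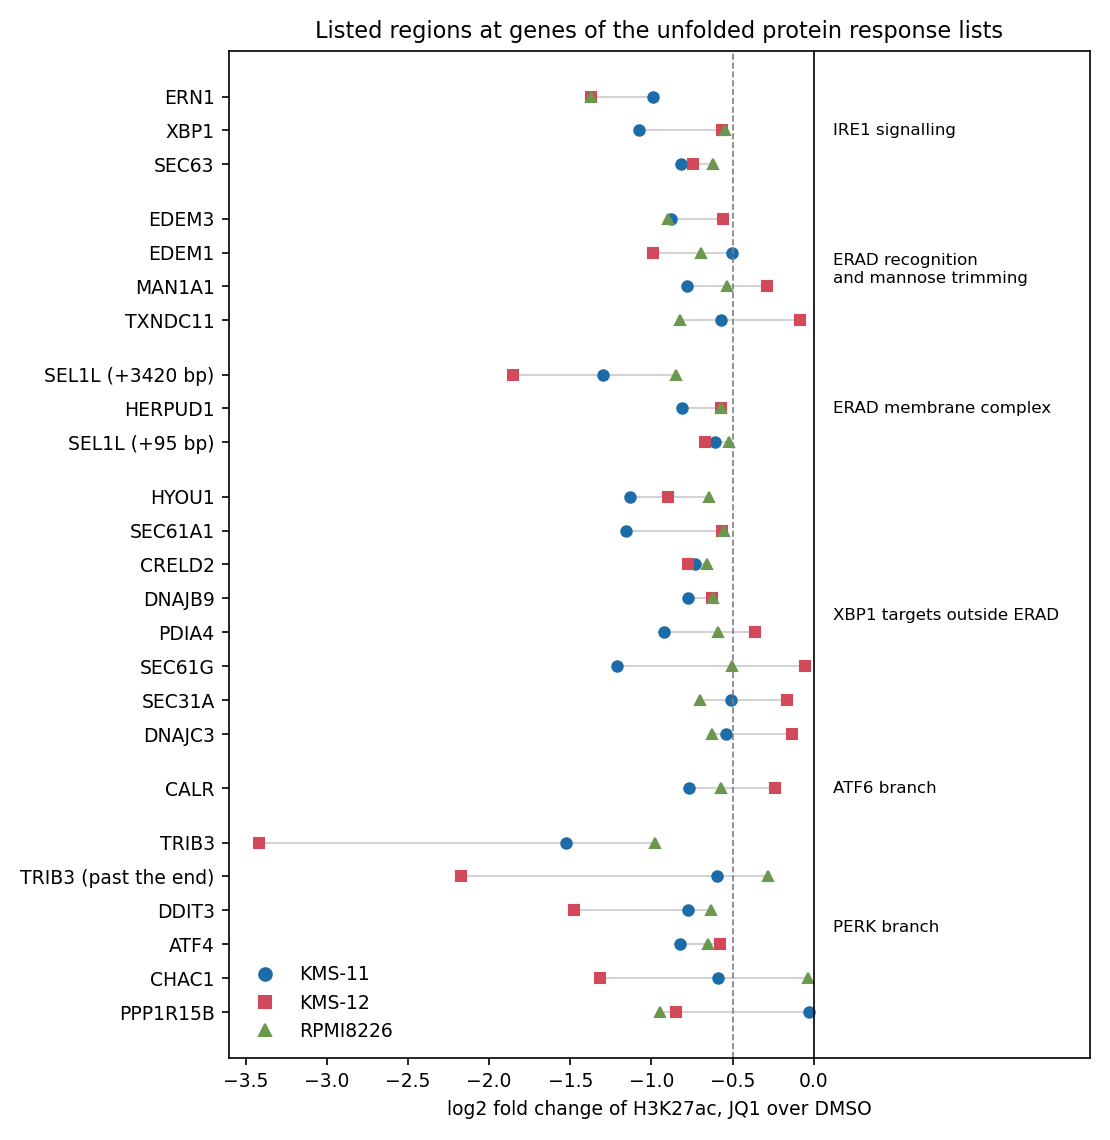
Log2 fold change of H3K27ac, JQ1 over DMSO, in the 3 lines (points joined by a grey line) at each listed region of the pathway lists, with the -0.5 filter dashed; a region of 2 lists is drawn once. The KMS-12 squares lie right of the filter at 7 ER genes from MAN1A1 to CALR, and left of it at ERN1, XBP1, both SEL1L regions, HERPUD1 and EDEM1. They also lie left of it at SEC63, EDEM3, DNAJB9, SEC61A1, HYOU1, CRELD2 and every PERK branch region.

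Plasma cell regulators had 3 of 12 genes with a region, XBP1, IRF4 and MZB1. IRF4, a transcription factor that plasma cells require, had -1.10 (KMS-11), -1.81 (KMS-12) and -1.07 (RPMI8226) in the authors' deposited table, at 42 to 2092 bp downstream of its start. MZB1, an ER protein of antibody-secreting cells, was listed at -1.40, -0.99 and -0.07 in the authors' deposited table, and so missed -0.5 in RPMI8226. The IRF4 region, like those of ERN1 and SEL1L, lay wholly downstream of the start, and IRF4 was 14th lowest by mean, between the inner SEL1L region (13th) and ERN1 (17th). Whether regions of this placement differ from those over a start was looked at over the list: the mean over lines had a median of -0.63 in the 180 regions wholly downstream with their near edge within 5 kb and -0.62 in the 400 that covered a start, from the authors' deposited table. They were past -0.5 in all 3 lines at 28.9% and 25.2%.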

How the data were processed

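H3K27ac ChIP-seq was done on 3 JQ1 and 3 DMSO samples, 1 of each treatment per cell line, per the labels. The authors deposited 1 table of 838 regions with a log fold change per line, taken here as log2 values, and a count of lines. The names DESeq2, MACS2, hg38 and GRCh38.p13 appear per the submitters' processing notes, without the steps they served. Not given in the sources used here are the aligner, peak settings, scaling between libraries and filter. If libraries were scaled to equal totals, a change common to most regions would not be seen. On the values, all 838 regions were below 0 in 3 lines, and the count of lines matched how many of the 3 values were below -0.5, in 838 of 838. The value nearest to the filter from the other side was -0.499.

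Regions were placed on 20037 protein coding and 18303 lncRNA genes of the RefSeq table of GRCh38.p14, and starts and strands came from 35116 RefSeq promoter windows. Coordinates are as deposited, and widths count both ends; whether starts count from 0 or 1 is not stated, which leaves 1 bp uncertain. Region assignment and motif search were checked on planted regions and motifs (Python 3.11.15, pandas 2.3.3). The genes, lists and motifs were chosen with earlier results of these data known. The text names the 5 genes with every region, up to 6 other members of each list by mean fold change (DNAJC3 and SEC31A, outside that number, were named after their values were seen), and the listed regions nearest to each region over the lines. The planned fit over samples could not be made, since the table has no value of a single sample.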

Additional observations from a re-analysis of the deposited data

How the results depend on the processing

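The 6 regions were assigned to the 5 genes also when every gene within 1 kb, protein coding genes alone or all gene types were used, and the number of genes with a region was the same in all 8 pathway lists with the 1 kb rule. Past -0.75 in all 3 lines 2 of the 6 regions were left and past -1 there were 0. Leaving out KMS-11, KMS-12 or RPMI8226 (1 JQ1 and 1 DMSO sample each) kept 6 of 6 past -0.5 in both other lines, which the filter favours, and moved the mean fold change to between -1.58 and -1.07 at the inner SEL1L region, -1.37 and -1.18 at ERN1, -0.82 and -0.56 at XBP1, -0.84 and -0.60 at EDEM1, -0.69 and -0.57 at HERPUD1 and -0.64 and -0.56 at the outer SEL1L region. Relative to each line's median over all listed regions, the mean was -0.70 at the inner SEL1L region, -0.61 at ERN1, -0.0919 at XBP1, -0.0905 at EDEM1, -0.0112 at HERPUD1 and 0.0391 at the outer SEL1L region, where the sign turned; this setting subtracts the common shift by construction. By the median of the lines HERPUD1 ranked 614th in place of 369th and ERN1 9th in place of 17th. By the mean of the ranks within lines ERN1 was 8th and the inner SEL1L region 7th. No paired analysis was possible because the table gives 1 fold change per line, already JQ1 over DMSO, and no value per sample. Depth is unknown, so how far counting error limits the values cannot be stated.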

Other observations

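Pathway genes with an ER stress element were found both with and without a listed region. Of 81 genes of the IRE1, ERAD, XBP1 target and ATF6 lists with a RefSeq promoter window, 7 held an ERSE, namely CALR, CANX, CRELD2, HSP90B1, HSPA5, PDIA6 and XBP1. XBP1, CALR and CRELD2 had a listed region, and the region of CRELD2 did not reach its promoter. CANX, HSP90B1, HSPA5 and PDIA6, which encode ER chaperones and a disulfide isomerase, had none. ERSE-II was held by 3 of the 81, HERPUD1, HYOU1 and SDF2L1, of which HERPUD1 and HYOU1 had a region over the start and SDF2L1 had no listed region within 1749549 bp. Among the 420 promoter windows that lay wholly under a listed region, 3 (0.714%) held an ERSE and 2 (0.476%) an ERSE-II. The ERSE windows include that of XBP1 and the ERSE-II windows that of HERPUD1, genes that were chosen by these fold changes. These counts describe the list, and no test was made on them.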
